A study of Homo sapiens with 16 samples.

Results

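Mitoxantrone is an anthracenedione that slides between DNA base pairs and poisons type II topoisomerases, and it is used against leukaemia and multiple sclerosis. In K562, a human chronic myeloid leukaemia cell line, the regions of the genome held by the trapped enzyme after mitoxantrone were set against those found after vehicle alone. Every region on chromosomes 1 to 22 of the deposited mitoxantrone list and of the deposited vehicle list was taken, 193147 and 296907 regions, or 490054 of the 1481258 regions in the 5 lists of the series. Each was classed as shared when it had at least 1 bp in a region of the other list, and otherwise as mitoxantrone-only or vehicle-only. The vehicle was dimethyl sulphoxide (DMSO), and the lists came from 1 library of cells given 2 µM mitoxantrone for 1 h and from 3 libraries of DMSO cells that the authors pooled into 1 list. All cells were the same line with no genetic change, and drug and vehicle cultures both held 0.05% DMSO. The protocol gives the vehicle time as 1 or 4 h without saying which library had which, so the match in time is unknown. All 4 libraries were amplified before library preparation. The titles of the mitoxantrone library and of 1 DMSO library share the number 4, which the labels do not explain.

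DNA topoisomerase II alpha (TOP2A) is the main type II topoisomerase of dividing cells, needed to untangle replicated chromosomes. It cuts both strands of 1 duplex, stays covalently bound to the cut ends, passes another duplex through the gap and seals it. Poisons such as mitoxantrone hold the enzyme in that cut state, called the cleavage complex, and the breaks that follow kill cells and have been linked to leukaemias with translocated KMT2A or with a PML-RARA fusion. Here TOP2A was captured by antibody from sonicated lysates of about 250 to 750 bp fragments, without a crosslinker named in the labels, and the attached DNA was released and sequenced. A cleavage cluster region is a stretch where such DNA piled up. The antibody takes TOP2A, so the related enzyme TOP2B, which cells use outside division too, was not measured. The capture does not tell a cut site from DNA next to it on the same fragment, and each list is 1 pooled set with no value per replicate, so no difference between drug and vehicle could be tested against the spread between cultures.

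Promoters at which both lists held a region give a few examples of shared sequence. They do not stand for the 13774 shared mitoxantrone regions. Of 15101 protein-coding genes with a promoter entry, 23 had bases covered by both lists in the window from 250 bases before to 50 after the start site, and a few of these genes share a window. The 4 printed are those with the highest lower value of the pair among windows where at least 50 upstream bases were covered by both. They are the 250 bases before the start site in RefSeq's GRCh38.p14 sequence, written along the gene's own strand. Capitals mark the bases covered by a mitoxantrone and a DMSO region.
ARPP19, chr15:52569447-52569696: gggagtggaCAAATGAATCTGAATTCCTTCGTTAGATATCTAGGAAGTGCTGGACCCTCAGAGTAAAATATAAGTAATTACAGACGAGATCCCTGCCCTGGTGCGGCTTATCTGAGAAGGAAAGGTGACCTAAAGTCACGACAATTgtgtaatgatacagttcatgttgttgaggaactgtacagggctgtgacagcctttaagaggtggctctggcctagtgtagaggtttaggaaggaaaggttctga
MLC1, chr22:50085427-50085676: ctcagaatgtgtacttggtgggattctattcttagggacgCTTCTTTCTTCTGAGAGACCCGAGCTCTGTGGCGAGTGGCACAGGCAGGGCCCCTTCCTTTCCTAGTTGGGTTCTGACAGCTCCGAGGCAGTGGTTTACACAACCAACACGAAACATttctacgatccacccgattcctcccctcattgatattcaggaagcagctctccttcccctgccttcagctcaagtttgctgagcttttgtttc
FIG4, chr6:109691046-109691295: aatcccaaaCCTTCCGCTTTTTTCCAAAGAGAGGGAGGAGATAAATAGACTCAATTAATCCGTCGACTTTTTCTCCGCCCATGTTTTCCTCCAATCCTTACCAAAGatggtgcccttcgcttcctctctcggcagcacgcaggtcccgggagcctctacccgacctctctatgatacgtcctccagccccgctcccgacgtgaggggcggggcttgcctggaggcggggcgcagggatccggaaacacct
SLC25A11, chr17:4940047-4940296: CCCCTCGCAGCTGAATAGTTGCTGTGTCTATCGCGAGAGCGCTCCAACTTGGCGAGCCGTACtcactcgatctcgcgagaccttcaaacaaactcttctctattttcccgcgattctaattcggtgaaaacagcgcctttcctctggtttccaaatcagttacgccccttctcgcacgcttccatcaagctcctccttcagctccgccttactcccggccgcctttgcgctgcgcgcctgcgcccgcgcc

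The 4 upstream stretches were of moderate GC content, from 44.8% at ARPP19 to 57.6% at SLC25A11, with MLC1 at 51.2% and FIG4 at 57.2%. ARPP19 encodes a phosphatase inhibitor that acts at entry into mitosis, SLC25A11 a mitochondrial carrier for oxoglutarate and malate, FIG4 a phosphoinositide phosphatase and MLC1 a membrane protein of astrocytes. At ARPP19, on the minus strand, 137 upstream bases lay in both lists, and the deposited values were 15.55 in mitoxantrone and 16.91 in DMSO. The value has no stated unit, so it ranks regions within a list and is not a ratio between lists. At MLC1, also on the minus strand, 117 bases were shared, and the values were 37.94 and 11.8. FIG4, on the plus strand, shared 97 bases with values of 12.96 and 8.07, and SLC25A11, on the minus strand, shared 62 bases with values of 20.42 and 7.78. Only in the mitoxantrone list is an input signal given for each region, and it was 0 at ARPP19 and 2.13 at MLC1.

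The first question is how many places were held under both conditions. Few were, although more than the covered bases alone would give. Of the mitoxantrone regions 13774 met a DMSO region, or 7.13% (exact Clopper-Pearson 95% interval 7.02 to 7.25), leaving 179373 mitoxantrone-only. Of the DMSO regions 13849 met a mitoxantrone region, or 4.66% (4.59 to 4.74), leaving 283058 DMSO-only. The lists covered 33.6 Mb and 49.2 Mb, or 1.29% and 1.88% of the 2615.6 Mb where any of the 5 lists had a region within 100 kb bins. If regions of these widths lay evenly over that genome, 3.85% of mitoxantrone and 2.50% of DMSO regions would meet the other list. The measured shares were 1.85 and 1.86 times those values. That reference is a calculation and not a test. All intervals here cover counting error of regions only, because each condition is 1 list with no spread between samples.

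List length moved with the cut-off. The lowest value kept was 3.87 for mitoxantrone and 1.84 for DMSO. With regions under 4 left out of both, 190321 mitoxantrone and 200339 DMSO regions remained. Then 9837 mitoxantrone regions were shared, 5.17% (5.07 to 5.27), against 9851 DMSO regions, 4.92% (4.82 to 5.01). The 2 lists were then nearly equal in length, and the shares stood at 1.92 times the even reference in both directions. With both lists trimmed, the share of mitoxantrone regions that met the other list was lower and the ratio to the reference was close to that of the full lists. The DMSO regions left out came mostly from its fine part, described further on, so the cut did not act evenly on that list.

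Most mitoxantrone regions lay within 5 kb of a DMSO region without touching it. The density of the other list alone brings regions this near, and no even reference was computed for these distances. Within 1 kb of a DMSO region were 28.1% of mitoxantrone regions, within 5 kb 72.1%, within 10 kb 90.6% and within 50 kb 99.9%. From DMSO regions to the sparser mitoxantrone list the shares were 19.4%, 57.2%, 79.9% and 99.8%. At 50 kb the shares are close to their upper limit, since both lists hold several regions per 50 kb of callable genome.

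Where regions met, they often met only in part. The 13854 meeting pairs shared a median of 110 bp (quartiles 57 and 140), with region widths whose medians were 160 bp in the mitoxantrone list and 153 bp in the DMSO list. In 6604 pairs, 47.7%, at least 50% of both regions was shared, and in 611 pairs, 4.41%, at most 10 bp was. The midpoints were a median of 65 bp apart, and 2920 pairs, 21.1%, had them within 20 bp. Across the pairs, which are not independent replicates, values in the lists were unrelated in rank (Spearman rho 0.0023), as were widths (rho 0.0145). DMSO values lie on unlike scales, described further on, and within the coarse and the fine part the value rho was 0.0899 (5554 pairs) and 0.0573 (5108 pairs). Correlations this weak in such lists are given as a description only. In bases, both lists held 1.41 Mb, or 4.18% of the mitoxantrone and 2.86% of the DMSO cover.

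Wider regions were shared more often, while value within a narrow range of widths showed no steady trend. Shared mitoxantrone regions had a median width of 165 bp against 159 bp for mitoxantrone-only regions, and 9.85% against 5.81% were wider than 300 bp. By width the shared part of the mitoxantrone list ran from 5.82% in the narrowest of 8 groups (27 to 127 bp) to 10.4% in the widest (209 to 1278 bp). The DMSO list went from 3.14% to 7.04% over its own 8 groups. A wider region covers more bases that another can touch, and the part of the rise that this sets was not tested.

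**Figure D1:**
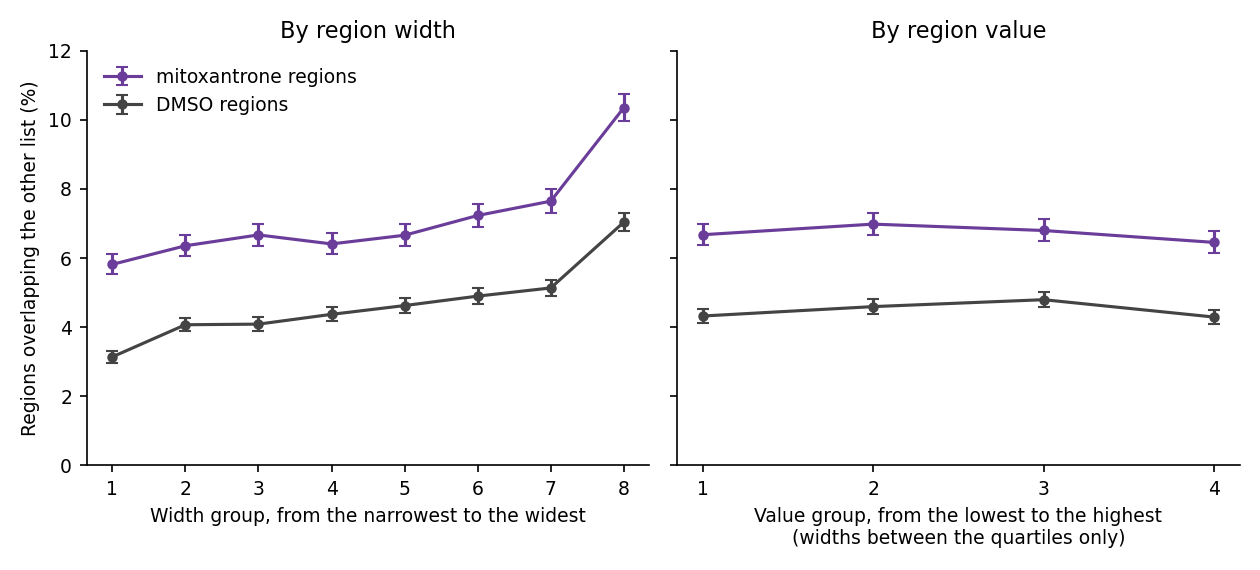
Percentage of mitoxantrone (purple) and DMSO (grey) regions that overlap the other list, in 8 groups by region width (left) and, for widths between the quartiles, in 4 groups by deposited value (right), with exact 95% intervals as bars. The share rises with width, to 10.4% and 7.04% in the widest groups, and stays between 6.45% and 6.98% (mitoxantrone) or 4.29% and 4.79% (DMSO) over the value groups.

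Median values were 13.93 for shared and 13.28 for mitoxantrone-only regions, a ratio of 1.05 (95% interval 1.03 to 1.07). Among regions with widths between the quartiles the shared part was 6.67%, 6.98%, 6.80% and 6.45% in 4 groups from the lowest to the highest value. The lowest and highest groups have intervals that overlap (6.37 to 6.99 and 6.15 to 6.77). In the DMSO list the same 4 shares were 4.32% (4.12 to 4.53), 4.59%, 4.79% (4.58 to 5.02) and 4.29% (4.09 to 4.50), so the third group stood above the lowest and the highest. Neither list showed a steady rise with value in that width range.

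The input signal of the mitoxantrone list separated regions somewhat. Regions with an input of 0 numbered 42530, 22.02% of the list, and 5.71% of them were shared (5.49 to 5.94). The 64031 regions at the lowest input step, 0.23, were shared in 7.84% (7.64 to 8.05), and the 19360 regions with an input of 1.18 or more in 6.71% (6.37 to 7.08). The lowest value kept also moved with the input, from 5.81 at an input of 0 and 3.87 at 0.23 to 7.75 at 0.47 and 19.09 at 1.18 or more. Shared regions thus had an input of 0 less often, in 17.6% (17.01 to 18.3) against 22.4% (22.2 to 22.5) of mitoxantrone-only regions. With values of at least 4 in both lists the gap was smaller, 20.5% (19.7 to 21.3) against 22.4% (22.3 to 22.6). The DMSO list gives no input signal, so the same split could not be made there.

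Places shared by drug and vehicle were also met more often by regions of the other poisons. Etoposide, a podophyllotoxin poison, had a region at 7.25% (6.82 to 7.69) of shared and 4.33% (4.24 to 4.43) of mitoxantrone-only regions. For genistein, a plant isoflavone, the shares were 13.03% (12.5 to 13.6) and 9.64% (9.51 to 9.78), and for p-benzoquinone, a benzene metabolite, 10.97% (10.5 to 11.5) and 6.72% (6.603 to 6.84). Among regions with widths between the quartiles the order held, at 6.78% against 4.03%, 12.02% against 9.19% and 10.4% against 6.42%. Etoposide and genistein were given for 1 h, like mitoxantrone, but p-benzoquinone for 4 h. Each drug had its own dose, and each of these lists pools more than 1 amplified library. The other lists also differ in length, which sets their level, so each is read only between the 2 classes.

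The pooled DMSO list holds values on unlike scales. Low mitoxantrone values were whole multiples of 0.324, and the lowest, 3.87, was 12 such steps. DMSO values fell on a coarse step of 0.33818 (38.9% of values) or on the fine steps of 0.23077 and 0.23131 (41.8%). Another 15.1% fitted neither or both kinds of step and were left out of the parts, and 4.19% were too high to place. The lowest value among the fine was 1.84, or 8 steps. Among the coarse it was 3.72, but the assignment itself set a floor there, so that lowest value is not an observation. The regions with a coarse value, 118473, are called the coarse part, and the 125599 with a fine value the fine part. No label says which library gave which. The coarse part was singled out after the steps were seen, as the part whose step lies nearest that of mitoxantrone. Leaving out regions under 4 kept 116282 of the coarse regions but only 32988 of the fine ones.

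The overlap with mitoxantrone was of like size in both parts. Of the coarse part 4.92% (4.80 to 5.04) met a mitoxantrone region, 1.97 times its even reference, and of the fine part 4.29% (4.17 to 4.40), 1.74 times its own. Within the DMSO list, 3637 coarse regions were joined with a fine value, 3.07% (2.97 to 3.17) of the coarse part, or 1.97 times the reference for that pair. Drug and coarse vehicle regions thus met about as far above the even level as the parts of the vehicle list met each other. How that ratio varies between cultures was not measured.

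Genomic position is the next question, and start sites were where the lists differed most among the gene features measured. Mitoxantrone regions covered the 1 kb on each side of start sites of protein-coding genes at 0.747 times the genome mean, and DMSO regions at 1.02 times. The log2 ratio was -0.45 (95% interval -0.54 to -0.37), with 1674 mitoxantrone and 3408 DMSO regions touching those windows. It was -0.24 (-0.34 to -0.13) over the coarse part and -0.68 (-0.78 to -0.58) over the fine part. So the direction was the same in both parts and the size differed by more than 1.5 times. Cover of mitoxantrone-only regions there, 0.747, was close to that of shared regions, 0.755, while DMSO-only regions stood at 1.04.

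The deepest part of the dip was narrow, while mitoxantrone cover stayed below the genome mean through 5 kb on each side. In the outermost steps before and after the start site it was 0.832 and 0.835, against 0.947 and 0.978 for DMSO. In the 250 bp after the start site, mitoxantrone cover was 0.506 times the genome mean, and in the 250 bp before it 0.636. The matching DMSO values were 0.755 and 0.823, the coarse part had 0.610 and 0.823, and the fine part 0.942 and 0.919. A dip at the start site thus appeared in the vehicle as well, and was deepest in the mitoxantrone list among these 4 sets. At transcript ends the lists lay closer, at 0.9804 for mitoxantrone and 1.07 for DMSO (log2 ratio -0.12, -0.08 over the coarse and -0.23 over the fine part).

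**Figure D2:**
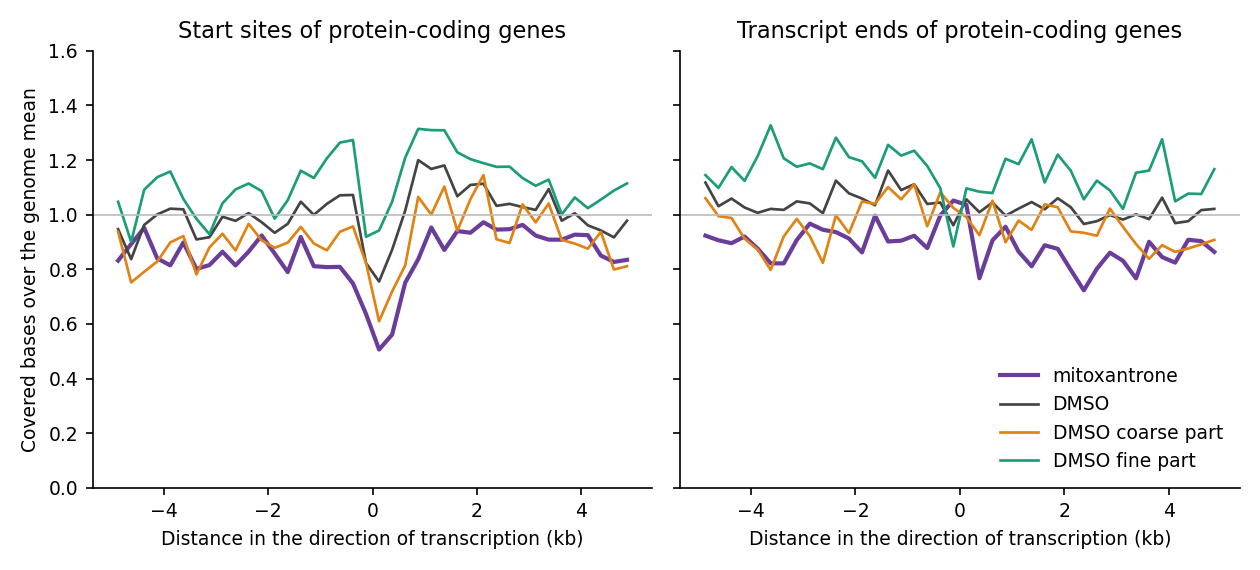
Covered bases over the genome mean in 250 bp steps, from 5 kb before to 5 kb after start sites (left) and transcript ends (right) of protein-coding genes, for the mitoxantrone list, the DMSO list and its coarse and fine parts. All 4 lines fall at the start site, the mitoxantrone line lowest at 0.506. Single steps vary at transcript ends as well, where the fine part reaches 0.884 before and mitoxantrone 0.767 after the end.

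Promoter sequence content went with cover in both lists. Of the 15101 promoter windows of 300 bp, 315 (2.09%) were touched by a mitoxantrone and 654 (4.33%) by a DMSO region, and 26 by both. The touched windows had a median GC content of 57% for mitoxantrone, 56% for DMSO and 53.8% for both, against 63.3% for windows in neither list. The windows were ranked into 5 groups by GC content. In the group with the highest GC content (72.3% to 94%), cover was 0.0399 of the genome mean for mitoxantrone and 0.0294 for DMSO. These GC-rich promoters were thus almost empty of regions in drug and vehicle alike, and how well such DNA was amplified and mapped was not tested.

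In every group of lower GC content, mitoxantrone cover lay below that of the whole DMSO list and of both its parts. In the group from 51.7% to 60% GC, cover was 0.874 for mitoxantrone, 1.52 for DMSO, 1.35 for the coarse and 1.84 for the fine part. There 87 windows were touched by mitoxantrone, 2.82% (2.27 to 3.47), and 234 by DMSO, 7.597% (6.69 to 8.59). In the group of lowest GC content (6.67% to 51.3%) the cover was 1.18 for mitoxantrone, 1.21 for the coarse part and 1.35 for the whole DMSO list. From 60.3% to 65.7% GC it was 0.699 for mitoxantrone against 0.755 to 0.881 in the vehicle sets. From 66% to 72% GC it was 0.250 against 0.284 to 0.400. The gap to the whole DMSO list was thus widest from 51.7% to 60% GC. In the lowest GC group 120 windows were touched by mitoxantrone and 213 by DMSO. From 60.3% to 65.7% GC the numbers were 64 and 124, and from 66% to 72% GC 33 and 71. No interval was computed for the cover ratios, so these smaller gaps are not told from counting error.

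**Figure D3:**
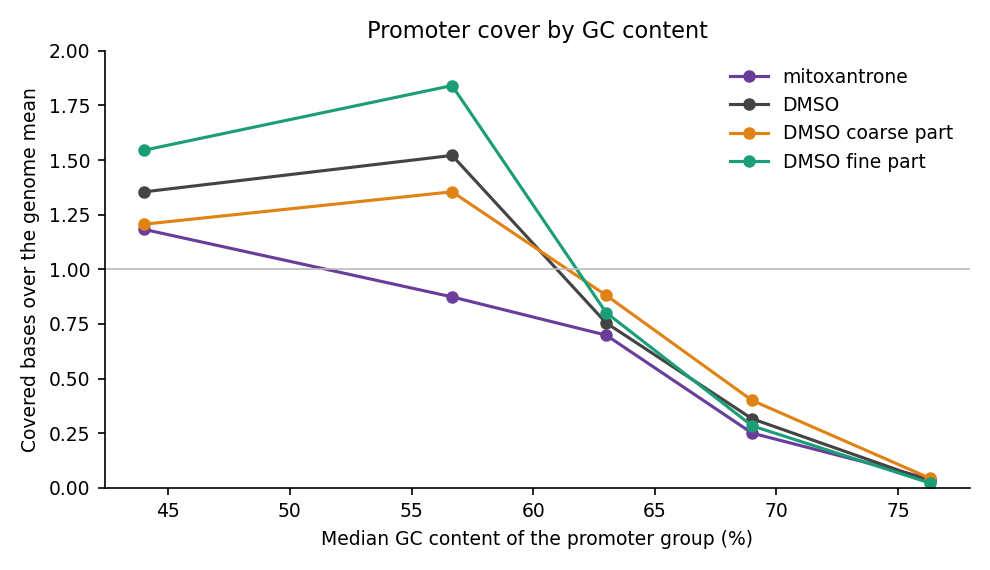
Covered bases in promoter windows over the genome mean, in 5 groups by promoter GC content, each placed at its median GC. Mitoxantrone cover falls from 1.18 to 0.0399, and it lies below all 3 vehicle sets in every group but that of highest GC content. In the group from 51.7% to 60% GC it is 0.874 against 1.35 to 1.84.

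Whole gene bodies differed little. The midpoint of the region lay in a protein-coding gene for 45.9% (45.7 to 46.2) of mitoxantrone-only, 47.4% (47.2 to 47.6) of DMSO-only and 47.7% (46.9 to 48.5) of shared mitoxantrone regions. The difference between mitoxantrone-only and DMSO-only regions was -1.46 percentage points (95% interval -1.76 to -1.17), and -0.66 points (-1.03 to -0.29) against the coarse part. Protein-coding gene bodies span 45.2% of the callable bases, so all classes lay close to that share.

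Gene length separated the lists more. Genes were counted over their body with 2 kb on each side, and ratios are scaled so that the full lists stand at 1. Genes were ranked into 10 groups by window length. In the group with the shortest windows, the scaled ratio of mitoxantrone to DMSO regions was 0.744 (0.671 to 0.824), with 554 and 1145 regions, and 0.821 over the coarse part. In the group with the longest windows it was 1.01 (0.999 to 1.02), with 52115 and 79336 regions, and 0.996 over the coarse part. Short genes, whose windows are mostly flank and start site, thus held fewer mitoxantrone regions relative to the vehicle.

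Along the chromosomes the ratio followed gene density. In 1 Mb bins without a protein-coding gene the scaled ratio was 1.23 (1.21 to 1.25), and in bins with 20 or more genes 0.818 (0.800 to 0.837). The ratios were 1.06 and 0.921 over the coarse part and over the fine part 1.54 and 0.711, so the order was the same and the span was mostly that of the fine part. Mitoxantrone regions fell from 80.4 to 58.5 per Mb between these bins. DMSO regions were at 101 and 110 per Mb, with no steady trend between, and were highest, at 119 per Mb, in bins with 4 to 9 genes. Over 2573 bins with at least 50 regions in either list, which share library and depth, region numbers in mitoxantrone and DMSO had Pearson's r 0.34 and Spearman's rho 0.28. With the coarse part the values were 0.55 and 0.47, with the fine part 0.06 and 0.03, and between the DMSO parts 0.16 and 0.12. As a description of these lists, the mitoxantrone numbers followed the coarse part along the genome more closely than the vehicle parts followed each other.

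Of the 2573 bins, 101 (3.93%) stood at least 1.5-fold higher and 109 (4.24%) at least 1.5-fold lower in mitoxantrone. The highest ratio was 2.08 (1.48 to 2.94), at chr18:66000001-67000000, which holds 1 protein-coding gene, CDH19, a cadherin gene. There 84 mitoxantrone regions stood beside 62 DMSO regions. The lowest was 0.459 (0.314 to 0.658), at chr1:25000001-26000000, with 14 genes, among them the Rh blood group genes RHD and RHCE. There 40 mitoxantrone regions stood beside 134 DMSO regions. The same bins had, over the coarse part, ratios of 1.78 and 0.571. Over that part 53 bins were higher and 27 lower. Fewer bins were tested there, so these counts are not to be set against the shares above.

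Chromosomes differed in a pattern that depended on the vehicle part. Chromosome 13 had the highest ratio, 1.13 (1.10 to 1.17), and chromosomes 4 and 14 had 1.11 and 1.10. Chromosome 19 had the lowest, 0.825 (0.789 to 0.863), before chromosomes 22 (0.833), 16 (0.859) and 17 (0.886), which are rich in genes. Over the coarse part chromosome 13 stood at 0.971 and chromosome 19 at 0.941, and the lowest was chromosome 22 at 0.880. Over the fine part chromosomes 13 and 19 stood at 1.47 and 0.708. With the coarse part chromosome 14 also fell below 1, to 0.969, and chromosome 1 turned from 0.912 to 1.02. The direction for chromosomes 1, 13 and 14, and for some nearer to 1, was therefore not kept. Mean input signal in mitoxantrone regions was lowest on chromosomes 13 and 14, at 0.341 and 0.362, against 0.526 on chromosome 1. Its part in the ratio was not tested.

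**Figure D4:**
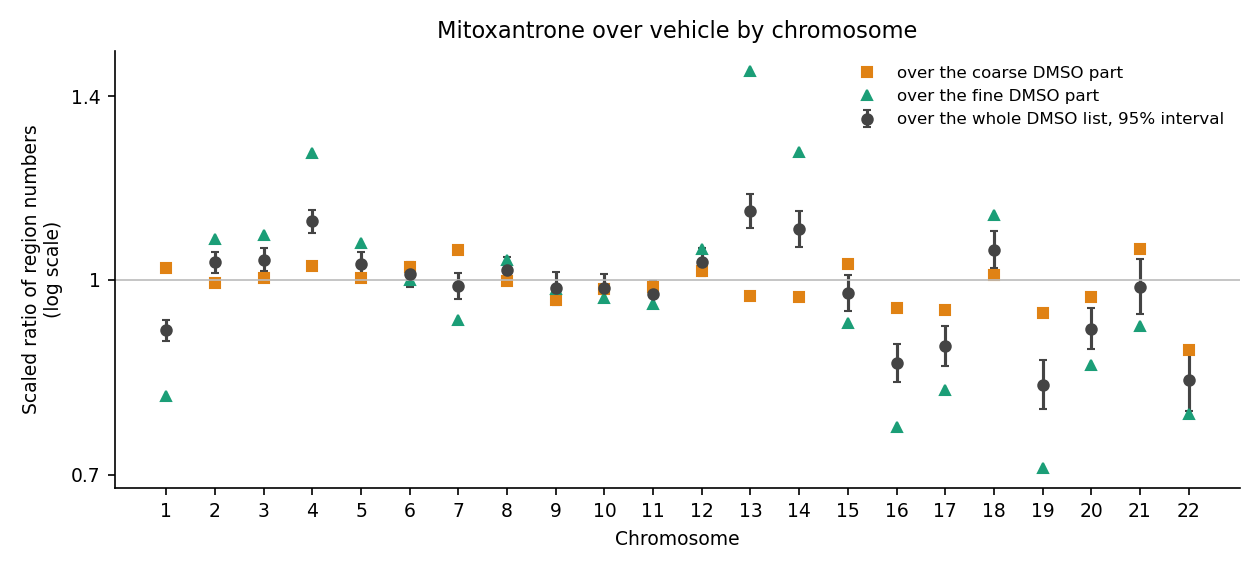
Scaled ratio of mitoxantrone to DMSO region numbers for chromosomes 1 to 22 on a log scale, over the whole DMSO list (grey, bars are 95% intervals), its coarse part (orange) and its fine part (green). The coarse ratios lie between 0.880 and 1.06, and the fine ratios between 0.708 and 1.47.

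Single genes held few regions each. Of 19126 protein-coding genes, 4300 had at least 10 regions in either list. Of these 162 (3.77%) were at least 2-fold higher and 413 (9.6%) at least 2-fold lower in mitoxantrone on the scaled count, with 0.5 added to each count. The median log2 ratio was -0.09 (quartiles -0.54 and 0.28). The 95% counting interval of the ratio excluded 1 in 280 of the genes, 6.51%, of which 125 were higher and 155 lower. Over the coarse part, with 2661 genes, 202 (7.59%) were higher and 77 (2.89%) lower, which turns the balance of the 2 directions. Of the genes called over the whole list, 90 of 162 higher and 30 of 413 lower were called the same way over the coarse part. A count of genes in either direction thus rests on which vehicle regions are used.

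The genes at the top of the ratio are described without a test, since the ratio chose them. ANKHD1, an ankyrin-repeat gene, had 15 mitoxantrone and 2 DMSO regions, a ratio of 11.5 (2.68 to 104). Its readthrough ANKHD1-EIF4EBP3 counts the same mitoxantrone regions. NAA15, an accessory subunit of the N-terminal acetyltransferase NatA, had 15 and 4, a ratio of 5.76 (1.84 to 23.9). ZCCHC2 had 11 and 2, and SLC49A4 had 12 and 3. Of the mitoxantrone regions in these genes, 1 was shared with DMSO, in NAA15. All of those named here were also at least 2-fold higher over the coarse part, where 90 of the 162 were.

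At the other end 6 of the 9 tested genes with no mitoxantrone region had the most DMSO regions. PPM1B, a metal-dependent protein phosphatase, had 0 against 13 DMSO regions. MKNK1, a kinase of the translation factor eIF4E, and LNP1 had 0 against 12. HTR3B, a serotonin receptor subunit, MAU2, part of the cohesin loader, and SLC38A12 had 0 against 11. The scaled DMSO number was divided by a floor of 3 regions per gene. This gave 2.82-fold for PPM1B, 2.60-fold for MKNK1 and LNP1, and 2.39-fold for HTR3B, MAU2 and SLC38A12. These values leave out the counting error of the DMSO number. The counting interval of the scaled ratio reached up to 0.504 for PPM1B, 0.553 for MKNK1 and LNP1, and 0.612 for HTR3B, MAU2 and SLC38A12. None of the 6 reached 10 regions in either list with the coarse part, so none was called there.

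Genes with the most shared regions were very long genes. CNTNAP2, a neurexin-related adhesion gene and 1 of the longest human genes, held 21 shared among 179 mitoxantrone and 237 DMSO regions. MAGI2, a synaptic scaffold, and RBFOX1, a neuronal splicing factor, held 15 each, and PDE4D, a cAMP phosphodiesterase, and CTNNA3, an alpha-catenin, 14 each. Number of regions grows with window length, which was 2308 kb for CNTNAP2. Per 100 kb, among genes with at least 5 shared regions, the most were in SFXN5, a mitochondrial carrier of the sideroflexin family, with 3.74, SUSD4 with 3.37 and the adenylyl cyclase ADCY1 with 3.27. Each of these 3 held 5 shared regions. RBM20, a splicing factor of heart muscle, held 6, and ADCY5, another adenylyl cyclase, 5. In all, 4225 genes held a shared region and 2528 held no region of either list.

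The strongest shared pair lay at chr6:47687675-47687855, with a value of 75.53 in mitoxantrone and 65.98 in DMSO, in the pseudogene ADGRF2P. The pair at chr13:89927438-89927610 had 63.87 and 81.55, and lay 1471 kb from the nearest protein-coding gene. Among the 10 strongest pairs, ranked by the lower value, 5 touched a protein-coding gene. That rank sets values without a stated unit side by side, so it is only a rule for picking pairs. In ATP2B2, a plasma membrane calcium pump, the values were 61.92 and 79.87, and in PRELID2, of a family of mitochondrial lipid carriers, 55.42 and 59.91. SGCD, a sarcoglycan of muscle, had 51.22 and 71.41, PALLD, an actin-binding protein, 49.59 and 52.1, and DLAT, a subunit of pyruvate dehydrogenase, 53.82 and 48.06. The input signal was between 0.23 and 3.78 in these 10 regions. High values in both lists thus occurred in and out of genes.

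Genes broken in leukaemia were no richer in mitoxantrone regions as a group. The 27 translocation genes held 290 mitoxantrone and 499 DMSO regions, a scaled ratio of 0.893 (0.770 to 1.03), beside 0.965 (0.957 to 0.973) over all protein-coding genes. Over the coarse part the ratios were 0.972 and 0.984. Of the 15 tested, MLLT10, a KMT2A fusion partner, was higher (19 against 14) and ELL, an elongation factor and another partner, lower (3 against 14), beside 3.77% higher and 9.6% lower of all tested genes. Neither was called over the coarse part, where MLLT10 had a log2 ratio of 0.33 in place of 1.05 and ELL had too few regions. The median log2 ratio of the 15 was -0.12, beside -0.09 over all tested genes.

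PML and RARA, which form the fusion of acute promyelocytic leukaemia, held 7 against 12 and 4 against 8 regions. The ratios were 0.897 (0.299 to 2.47) and 0.769 (0.169 to 2.87), too wide to place either side of 1. In PML 2 regions were shared. The mitoxantrone region chr15:74032425-74032612 had a value of 8.42, and its DMSO partner, chr15:74032442-74032583, had 9.47. The pair at chr15:74040023-74040227 and chr15:74040022-74040192 had 6.16 and 6.42. The strongest mitoxantrone regions of PML, at 36.31, 35.98 and 29.83, were not shared, and no region of RARA was. KMT2A, a histone methyltransferase gene that is a known target of breaks after TOP2 poisons, held 12 against 15 regions, with none shared. Its ratio was 1.23 (0.526 to 2.81), and it was at least 2-fold higher over the coarse part, where it had 3 DMSO regions. The highest KMT2A values in mitoxantrone were 81.03 and 79.08, at chr11:118484214-118484498 and chr11:118482411-118482558, and the highest in DMSO was 41.94, at chr11:118488606-118488792.

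The enzymes and the repair genes came next among the groups. The 15 genes of topoisomerases and of adduct removal held 75 mitoxantrone and 92 DMSO regions, a ratio of 1.25 (0.911 to 1.72), and none of the 4 tested passed 2-fold. TOP2A had 2 against 4 regions, with 1 shared, and TOP2B 5 against 8. The 20 double-strand break repair genes had a ratio of 1.18 (0.931 to 1.50), with 1 of 7 tested higher and none lower, beside 3.77% and 9.6% of all tested genes. That gene was POLQ, the polymerase of microhomology end joining, with 16 against 5 regions (ratio 4.92, 1.72 to 17.2), and it was also higher over the coarse part. Regions are places in the DNA of these genes and say nothing of their expression.

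Among drug efflux transporters the ratio was 0.782 (0.563 to 1.08), and 2 of 7 tested genes were lower and none higher, beside 9.6% and 3.77% of all tested genes. ABCG2, the breast cancer resistance protein that exports mitoxantrone, had 3 mitoxantrone against 11 DMSO regions, a ratio of 0.419 (0.0751 to 1.59), and none of them shared. ABCA3, a lipid transporter of lung, also had 3 against 11. ABCB1, the P-glycoprotein gene, had 14 against 17, a ratio of 1.27 (0.578 to 2.73). Neither lower gene reached 10 regions with the coarse part, so neither could be called there.

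Groups for other tissues served as a comparison. Heart muscle genes, of interest because mitoxantrone harms the heart, had a ratio of 0.864 (0.707 to 1.05), and 3 of 6 tested were lower and none higher, beside 9.6% and 3.77% of all tested genes. Among them were the myosin light chain gene MYL3, with 1 against 10 regions, and the Z-disc gene LDB3, with 3 against 14. Neither reached 10 regions with the coarse part, so neither could be called there. RYR2 and KCNQ1, larger channel genes of the heart, had 71 against 102 and 34 against 60, with log2 ratios of 0.10 and -0.19.

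T-cell and B-cell markers had the lowest ratio among the 14 groups, 0.638 (0.448 to 0.898), and 0.683 over the coarse part. They held 49 mitoxantrone and 118 DMSO regions. CD247, the T-cell receptor zeta chain, had 8 against 24, and PAX5, a B-cell transcription factor, 14 against 28. Neither of the 2 tested was called. Erythroid genes, which K562 expresses, stood at 0.893 (0.626 to 1.26), with 20 of 22 found on these chromosomes and 0 of 3 tested called. Groups of short genes held few regions: p53 targets had 42 against 63, ribosomal protein genes 15 against 32, histone genes 9 against 15, immediate early genes 13 against 21 and olfactory receptors 15 against 24. Their ratios ran from 0.721 to 1.02, all with intervals that include 1, and none of their genes reached 10 regions.

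Long genes lay on the other side. Neuronal genes had a ratio of 1.08 (1.01 to 1.16) and common fragile site genes, which break under replication stress, 1.07 (1.01 to 1.13). Over the coarse part both were level, at 1.00 and 1.01, and none of the 15 and 18 tested genes was called. LRP1B, a lipoprotein receptor relative, held 183 against 199 regions, a ratio of 1.41 (1.15 to 1.74). PTPRD, a receptor tyrosine phosphatase, held 185 against 199, a ratio of 1.43 (1.16 to 1.75). RBFOX1 went the other way, with 204 against 374, a ratio of 0.838 (0.703 to 0.997). On the log2 scale these 3 were at 0.50, 0.52 and -0.25, and at 0.25, 0.04 and -0.07 over the coarse part. Long genes of the same groups thus differed from each other by more than their counting intervals, and for PTPRD and RBFOX1 most of the difference went with the fine part.

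**Figure D5:**
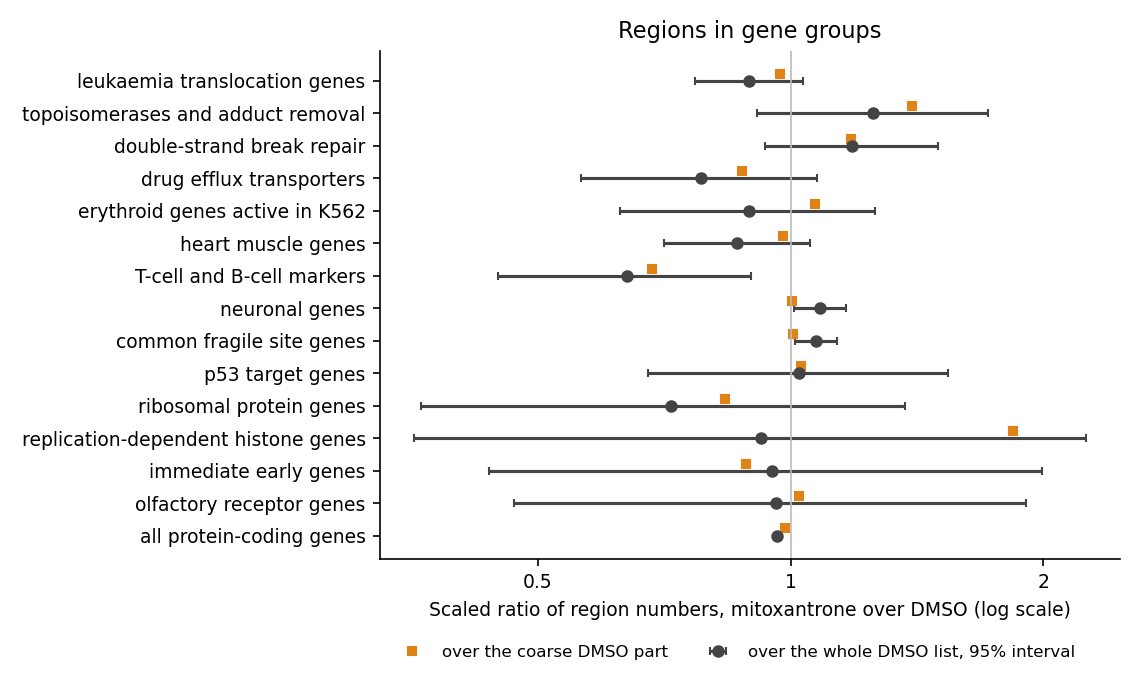
Scaled ratio of mitoxantrone to DMSO region numbers on a log scale for 14 gene groups and all protein-coding genes, over the whole DMSO list (grey, bars are 95% counting intervals) and over its coarse part (orange). T-cell and B-cell markers stand at 0.638, with an interval below 1, and neuronal and fragile site genes move from 1.08 and 1.07 to 1.00 and 1.01 over the coarse part.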

How the data were processed

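The authors deposited 1 list of cleavage cluster regions for each treatment, and its chromosome, start and end columns were used as they stand. The mitoxantrone list is not named in any sample description and was assigned to the 1 mitoxantrone library. Per the submitters' processing notes the tools include Bowtie2 2.1.0 and SAMtools 0.1.19 and the build is hg38; how regions were called is not given in the sources used here. Each region's deposited score has no stated unit, and where several values were joined the highest was used. In the mitoxantrone list the deposited signal of the input library stands beside it. Its further columns, a log2 value and a p-value as deposited by the authors, entered no result. Depth per library is unknown, since only called regions are listed.

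Regions on chromosomes 1 to 22 were compared by an overlap of 1 bp. The even reference is the share of the 2615.6 Mb callable genome that the other list would take up with each region widened by the mean width of the list tested. Values were assigned to steps within a tolerance of 0.0151, below 30, and to the coarse step only above a set floor. Values that fitted a coarse and a fine step alike were not assigned. Genes came from RefSeq's GRCh38.p14 table, with start sites and strand from its promoter table for 15101 of 19126 protein-coding genes. Gene windows had 2 kb on each side, a minimum of 10 regions in either list, a pseudocount of 0.5 and a 2-fold limit; 1 Mb bins needed 50 regions and 1.5-fold. Ratios were scaled to list totals with exact binomial 95% intervals.

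Each condition is 1 list, so no p-value was computed. Genes were named by rule: the 6 highest and 6 lowest ratios, the 5 with the most shared regions in number and, with at least 5 shared, per 100 kb, those touched by the 10 strongest shared regions, the 2 with the most mitoxantrone regions per group, and PML, RARA, KMT2A, TOP2A, TOP2B and ABCG2. Not every gene this rule picks is reported here. Other genes named were chosen after their values were seen: the group members past 2-fold, and CDH19, RHD and RHCE. The members, the 14 gene groups and the comparisons were chosen with earlier results of these data known. The steps were tested on simulated data. The scripts ran in Python 3.11.15 (scipy 1.17.1, numpy 2.4.6, matplotlib 3.10.9, pandas 2.3.3).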

Additional observations from a re-analysis of the deposited data

How the results depend on the processing

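The region number ratio crossed 1 when a DMSO part took the place of the whole DMSO list, which holds fewer regions by construction, and the balance of genes and of bins turned as well, from more lower to more higher. Over the coarse part, with 2661 genes tested, 202 (7.59%) were higher and 77 (2.89%) lower. Over the fine part the numbers were 383 and 283, also of fewer genes than the main 4300. No other summary result turned direction. None of the 20 named genes past 2-fold changed sign in 120 alternative values. Those genes were picked by the same ratio and the alternatives reuse the same regions, so a kept sign is a description and not support. No paired analysis was possible because each treatment is 1 deposited list with no replicate columns. For the same reason no library could be left out other than through the parts of the DMSO list. Of the alternative values of summary results, 31 stayed within their interval or within 1.5 times the main count, and the 56 that moved and the 2 that crossed 1 follow. The fine part, and every alternative for start sites, were chosen after seeing the data. Most single genes hold fewer than 10 regions, so their ratios have wide counting intervals, and depth per library is unknown.

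The region number ratio of 0.651 became 0.654 with chromosome X, 1.63 over the coarse and 1.54 over the fine DMSO part, 1 by construction with equal numbers of the strongest regions, 0.507 with mitoxantrone regions that had input signal, and 0.949995 with values of at least 4. The share of mitoxantrone regions overlapping DMSO, 7.13%, became 3.02% (coarse), 2.78% (fine), 4.99% (equal numbers), 7.53% (input signal), 5.17% (values of at least 4), 3.42% (50% of both regions), 4.89% (midpoints within 100 bp) and 28.1% (within 1 kb). The share of DMSO regions, 4.66%, became 4.92%, 4.29%, 4.996%, 3.84%, 4.92%, 2.22%, 3.19% and 19.4% in the same order. The value ratio of shared to mitoxantrone-only regions, 1.05, was 1.00 (coarse), 1.12 (fine), 1.02 (input signal) and 1 (50% of both), and the width difference of 6 bp was 3 bp at 50% of both.

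Gene end cover, at a log2 ratio of -0.26, became -0.21 with 5 kb on each side, -0.13 (coarse), -0.43 (fine), -0.19 (equal numbers) and -0.20 (values of at least 4). Start site cover, at -0.45, became -0.23 (5 kb), -0.24 (coarse), -0.68 (fine) and -0.36 (equal numbers). The gene body difference of -1.46 points became -0.66 (coarse), -2.34 (fine), -1.002 (equal numbers), -1.10 (input signal) and -1.08 (values of at least 4).

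Genes at least 2-fold higher, 162, numbered 27 with at least 20 regions per gene, 383 (fine) and 102 (input signal). Genes at least 2-fold lower, 413, numbered 90 (20 regions), 77 (coarse), 176 (equal numbers) and 188 (values of at least 4). Bins higher, 101, numbered 2 with 5 Mb bins, 53 (coarse), 526 (fine), 46 (equal numbers) and 41 (values of at least 4). Bins lower, 109, numbered 6, 27, 337, 49 and 49 in the same order. Fewer genes or bins were tested with 20 regions, 5 Mb bins and shorter lists, so these counts are not shares and do not compare directly with the main ones. For the other changes the cause was not tested.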
